A study of Mus musculus with 6 samples.

Results

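The miR-204 and miR-211 family consists of 4 mature microRNAs (miRNAs, small RNAs that guide the silencing of messenger RNAs) cut from the hairpins Mir204 and Mir211, and its members were taken from the table of miRNA counts by name. Of the 4, mmu-miR-204-5p, mmu-miR-204-3p and mmu-miR-211-5p were counted, among 1542 entries in all, and miR-211-3p was not analysed here. Small RNA was sequenced from whole kidneys of female mice at 17 weeks of age, with 3 libraries from C57BL/6 mice and 3 from MRL/lpr mice (genotype MRL/MpJ-Fas<lpr>/J), and the comparison asks which kidney miRNAs differ between the strains. The lpr allele disrupts the death receptor gene Fas, and on the MRL/MpJ background such mice are a model of lupus with nephritis. Background strain, Fas mutation and disease cannot be told apart in this design, and in whole kidney neither can more cells of a type and more RNA per cell. Nothing in the labels ties a library to its own animal, so p-values measure only the spread between these samples. Libraries held 5259528 to 6773829 counts.

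miR-204 and miR-211 recognise their targets through the same seed, the bases near the 5′ end that pair with messenger RNA, and both hairpins lie in introns of genes for TRPM cation channels. miR-204 is known as an abundant miRNA of epithelia such as the retinal pigment epithelium, the choroid plexus and the kidney tubule, where described targets include the receptor gene Tgfbr2 and the transcription factor gene Snai2, both tied to loss of epithelial character. miR-211 is best known from melanocytes, where it is made together with its host gene Trpm1 under the transcription factor MITF. No target messenger RNA was measured in these libraries.

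The mature sequences are shown because the seed defines the family and because the 5p members are nearly identical. They are RefSeq sequences (GRCm38.p6), printed 5′ to 3′ with the seed (bases 2 to 8) in capitals.
miR-204-5p: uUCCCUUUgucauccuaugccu
miR-211-5p: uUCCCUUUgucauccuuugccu
miR-204-3p: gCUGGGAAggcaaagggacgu
miR-211-3p: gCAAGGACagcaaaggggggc
The 5p members agree at 21 of 22 bases and differ by A17U, where positions count from 1 at the 5′ end, the first letter is that of miR-204-5p and the last that of miR-211-5p. The 3p arms agree at 14 of 21 bases and have different seeds. Of 1190 entries with a miRBase name, 996 had a single reference sequence, and among these no entry outside the family carried the seed UCCCUUU or the seed of either 3p arm.

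The hairpins are shown with both mature arms in capitals.
Mir204: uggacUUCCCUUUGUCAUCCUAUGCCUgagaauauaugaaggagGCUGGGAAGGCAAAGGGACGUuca
Mir211: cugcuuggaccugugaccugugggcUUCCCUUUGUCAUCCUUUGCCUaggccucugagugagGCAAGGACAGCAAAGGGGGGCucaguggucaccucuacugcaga
Mir204 lies at chr19:22750605-22750672 (GRCm38, plus strand) in intron 6 of the principal Trpm3 transcript, an intron of 33462 bases, and was intronic in 15 of 17 protein-coding Trpm3 transcripts of GENCODE M21 and exonic in 0. Mir211 lies at chr7:64205806-64205911 (plus strand) in intron 6 of the principal Trpm1 transcript, an intron of 3682 bases, and was intronic in 8 of 13 protein-coding Trpm1 transcripts and exonic in 0. In both predicted folds 17 of the 22 bases of the 5p arm pair with the 3p arm, including all 7 seed bases. A messenger RNA site matching the shared seed reads AAAGGGA, and this run is also found in the miR-204-3p arm.

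All 3 counted members were higher in MRL/lpr than in C57BL/6 kidneys. miR-204-5p was an abundant miRNA and rose 2.88-fold, while miR-211-5p and miR-204-3p were scarce and rose 4.67-fold and 5.49-fold. Each passed the edgeR quasi-likelihood test with Benjamini-Hochberg adjustment over all 451 entries tested, of which 28 passed (6.21%), 19 of them higher (4.21%). For each of the 3 the lowest MRL/lpr library lay above the highest C57BL/6 library, as it did for 63 of the 451 entries (14.0%).

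miR-204-5p, the main product of its hairpin, stood at 5836, 4277 and 5472 CPM (counts scaled by library size and, with TMM, by library composition) in C57BL/6 replicates 1, 2 and 3. In the MRL/lpr replicates it stood at 12868, 17048 and 14920.4 CPM. The lowest MRL/lpr library lay above the highest C57BL/6 library by more than the whole range within C57BL/6. The C57BL/6 mean was 5195 ± 815 CPM and the MRL/lpr mean 14945 ± 2090.2 CPM (SD, n = 3), with a log2 fold change of 1.52 ± 0.18 (SE; edgeR adjusted p = 0.00141). These values rested on 26624 to 35122 counts in C57BL/6 and 87836 to 91131 counts in MRL/lpr. By count, miR-204-5p held ranks 36, 40 and 35 among all entries of the C57BL/6 libraries and ranks 22, 20 and 20 in MRL/lpr. The call was kept in each of the 6 fits that left out a library, with log2 fold changes from 1.39 to 1.65.

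**Figure D1:**
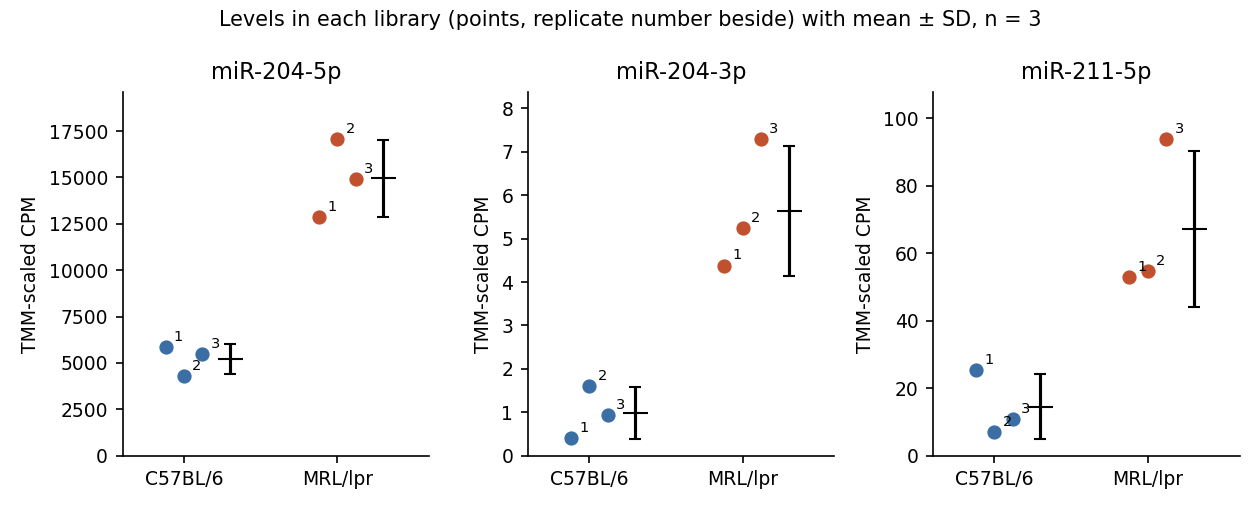
TMM-scaled CPM of the 3 counted members in each library (points, with the replicate number beside each), and the group mean with its SD (n = 3) as a bar to the right; each vertical axis starts at 0. In each panel the 3 MRL/lpr libraries lie above the 3 C57BL/6 libraries, on scales that reach 17048 CPM for miR-204-5p, 7.28 CPM for miR-204-3p and 93.7 CPM for miR-211-5p.

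With a minimum mean of 1000 CPM, a level chosen after the values were seen, 71 entries were left and miR-204-5p alone passed the test (edgeR, 1 of 71, 1.41%). Without C57BL/6 replicate 2 the count was 3, with miR-146a-5p and miR-21a-5p added, and without MRL/lpr replicate 2 it was 4, with let-7c-5p, let-7e-5p and miR-23b-3p added. miR-204-5p had the highest log2 fold change of the 71 with all libraries and in each of the 6 fits that left out a library. Over all 451 entries it ranked 2 by p and 14 by log2 fold change.

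**Figure D2:**
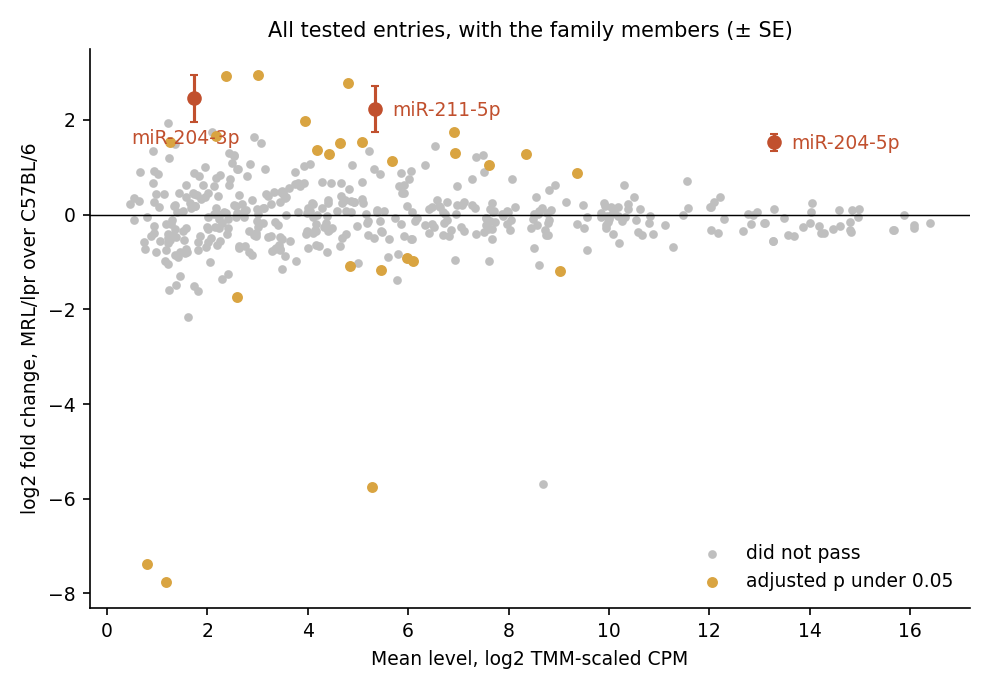
Log2 fold change (MRL/lpr over C57BL/6) against mean level (log2 TMM-scaled CPM) for the 451 entries tested, with those past the threshold in yellow and the family members in red with their SE. miR-204-5p lies apart from the other abundant entries at 1.52, and miR-211-5p and miR-204-3p lie at 2.22 and 2.46 at low levels.

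miR-204-3p, the minor arm of the same hairpin, had 2, 10 and 6 counts in C57BL/6 replicates 1 to 3 and 31, 27 and 44 counts in MRL/lpr replicates 1 to 3. On the CPM scale the C57BL/6 values were 0.409, 1.61 and 0.935 and the MRL/lpr values 4.38, 5.24 and 7.28. The lowest MRL/lpr value exceeded the highest C57BL/6 value, which was that of replicate 2. Means were 0.983 ± 0.600 and 5.63 ± 1.49 CPM (SD, n = 3), and the log2 fold change was 2.46 ± 0.50 (SE; edgeR adjusted p = 0.0186). With so few counts the call depended on single libraries: it was lost without C57BL/6 replicate 1 (edgeR adjusted p = 0.0754), C57BL/6 replicate 3 (0.0859) or MRL/lpr replicate 3 (0.107).

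The balance between the arms of Mir204 was not shown to differ between the strains. The 3p arm made up 0.00701% (95% exact Clopper-Pearson interval 0.000849 to 0.0253), 0.0375% (0.0180 to 0.0690) and 0.0171% (0.00627 to 0.0372) of miR-204 counts in C57BL/6 replicates 1 to 3. In MRL/lpr replicates 1 to 3 it made up 0.0340% (0.0231 to 0.0483), 0.0307% (0.0203 to 0.0447) and 0.0488% (0.0355 to 0.0655), so the strains overlapped. The means were 0.0205% ± 0.0156 and 0.0378% ± 0.00963 (SD, n = 3; two-sided exact permutation, p = 0.3, with 0.1 the lowest p possible for 3 against 3). Across 168 hairpins, limma on the log2 ratio of 5p to 3p CPM, with 1 added to each, called 8 (4.76%) and gave Mir204 a difference (MRL/lpr minus C57BL/6) of -0.24 ± 0.34 (SE; limma adjusted p = 0.813). The added 1 CPM is about the C57BL/6 level of the 3p arm itself. With 0.5 CPM added the difference was -0.58, and on raw counts with 0.5 added it was -1.02. Without C57BL/6 replicate 1 it was 0.078, so its direction was not determined. With 5 CPM added it was 0.70, but 5 CPM is above every C57BL/6 level of the 3p arm. That value is therefore pulled towards the change of the 5p arm. Mir204 ranked 7 of the 168 hairpins by dominance of the 5p arm. The intervals cover counting error only, as do all those given here, since reads were not known to be counted by molecule.

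miR-211-5p, which shares the seed of miR-204-5p, had 124, 44 and 70 counts in C57BL/6 replicates 1 to 3 and 375, 282 and 566 counts in MRL/lpr replicates 1 to 3. Scaled levels were 25.4, 7.07 and 10.9 CPM in the C57BL/6 libraries and 53.0, 54.7 and 93.7 CPM in the MRL/lpr libraries. The strains did not overlap, with C57BL/6 replicate 1 and MRL/lpr replicate 3 each well above the other libraries of their strain. Means were 14.4 ± 9.65 and 67.1 ± 23.0 CPM (SD, n = 3), and the log2 fold change was 2.22 ± 0.48 (SE; edgeR adjusted p = 0.0358). The call was lost without C57BL/6 replicate 3 (edgeR adjusted p = 0.142) and without MRL/lpr replicate 1 (0.0607), 2 (0.0574) or 3 (0.104), and the log2 fold change was 2.84 without C57BL/6 replicate 1.

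Since miR-211-5p differs from the far more abundant miR-204-5p at a single base, its share of their joint count was examined in each library. It made up 0.433% (95% exact interval 0.360 to 0.516), 0.165% (0.120 to 0.221) and 0.199% (0.155 to 0.251) in C57BL/6 replicates 1 to 3. In MRL/lpr replicates 1 to 3 it made up 0.410% (0.369 to 0.453), 0.320% (0.284 to 0.360) and 0.624% (0.574 to 0.677). The share thus differed between libraries of the same strain by more than counting error, and the strains overlapped. The log2 ratio of miR-211-5p to miR-204-5p counts was 0.84 higher in MRL/lpr (-7.84 ± 0.49 against -8.68 ± 0.74, SD, n = 3; exact two-sided permutation p = 0.3), so a different fold for the 5p members was not shown. The assignment of reads with a mismatch is not given here, and whether miR-204-5p reads with a changed base were counted as miR-211-5p was not tested.

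**Figure D3:**
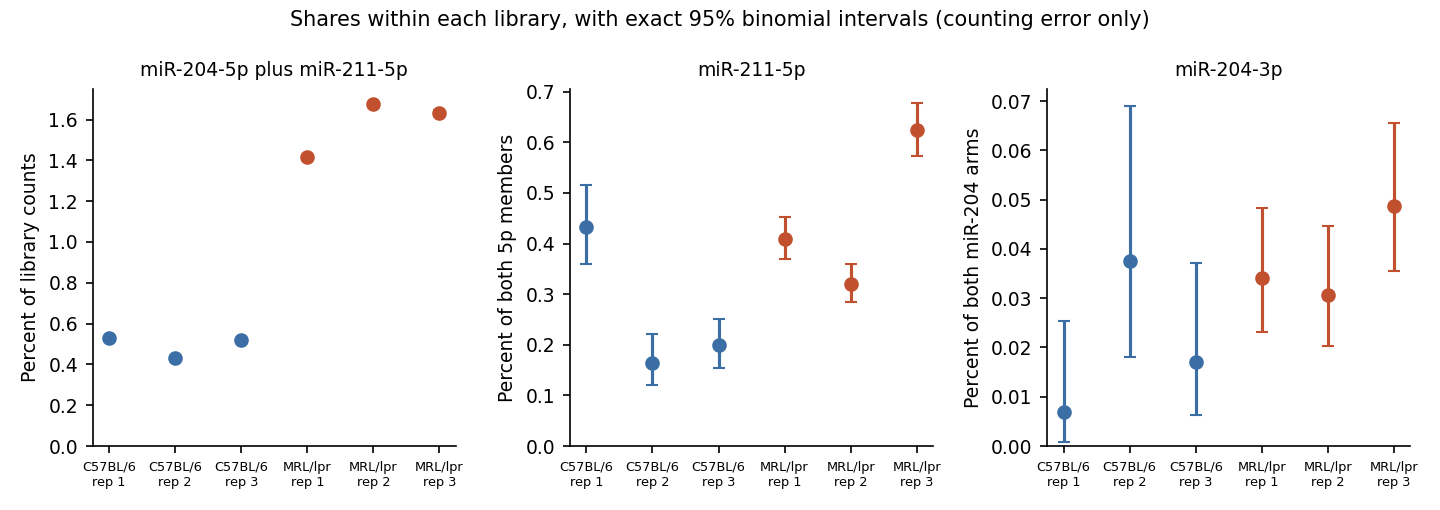
Shares of counts in each library with exact 95% binomial intervals, C57BL/6 in blue and MRL/lpr in red: the 5p members as a percent of all counts (left), miR-211-5p as a percent of both 5p members (middle) and miR-204-3p as a percent of both arms of miR-204 (right). The strains separate in the left panel, from 0.429% to 0.528% against 1.42% to 1.68%, and overlap in the other two.

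Together, the miRNAs that carry the seed UCCCUUU made up 0.528%, 0.429% and 0.520% of all counts in C57BL/6 replicates 1 to 3 and 1.42%, 1.68% and 1.63% in MRL/lpr replicates 1 to 3. The strains did not overlap, and the MRL/lpr mean was 1.08 percentage points higher (1.58% ± 0.139 against 0.492% ± 0.0546, SD, n = 3; two-sided exact permutation, p = 0.1, the lowest possible). In an alternative chosen after seeing the data, counts of all entries with a reference sequence were summed by seed before the test. The family then had a log2 fold change of 1.57 ± 0.14 (SE; edgeR adjusted p = 3.56e-04), and 16 of 379 groups passed (4.22%). By mean level it ranked 27 in C57BL/6 and 17 in MRL/lpr among all 1407 seeds and single entries.

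Other miRNAs of kidney epithelium passed the adjusted edgeR test at about the share of all entries. At an unadjusted p their share was larger. Of 15 listed, among them miR-192-5p and miR-194-5p of the tubule and the miR-200 family of epithelial identity, 14 were tested, 1 was higher and 0 were lower by edgeR, where 6.21% of all entries passed. At an unadjusted edgeR p under 0.05 there were 6. Of these, miR-802-5p, miR-203-3p, miR-141-3p and miR-190a-5p were higher, and miR-10a-5p and miR-10b-5p were lower. Over all 451 entries at least 93 but fewer than 96 were under that level. miR-139-5p, ranked 93 by p, had an edgeR p of 0.0485, and miR-148a-3p, ranked 96, had 0.0516. The 6 of 14 were thus a larger share than that of all entries. DESeq2 called 2 of the list, miR-802-5p and miR-203-3p, and 51 over all entries. It was given all 1542 entries and applied its own filter, so the 51 are not out of the 451. The median log2 fold change of the 14 tested was 0.14, against -0.027 over all 451 entries. The 1 that passed edgeR was miR-802-5p, a miRNA of kidney and liver (log2 fold change 1.75 ± 0.29 SE, edgeR adjusted p = 0.00793), and the others ran from -0.42 for miR-10b-5p to 0.75 for miR-190a-5p. The tubular miR-192-5p averaged 28243 ± 9843 CPM in the C57BL/6 libraries and 30421 ± 2972 CPM in the MRL/lpr libraries (SD, n = 3). Set against the geometric mean of the 15 within each library, log2 miR-204-5p counts stood at 1.78, 1.81 and 1.94 in C57BL/6 replicates 1 to 3 and at 2.86, 3.38 and 3.12 in MRL/lpr replicates 1 to 3. The difference was then 1.28 (exact two-sided permutation p = 0.1, the smallest possible), in a comparison chosen after seeing the data. By the same measure the strain differences were 2.11 for miR-211-5p and 2.30 for miR-204-3p (exact two-sided permutation p = 0.1 each), and neither overlapped.

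C57BL/6 replicate 2 stood apart from the other libraries of its strain, and its values touch the family. It had the lowest summed level of the kidney epithelium list (119267 CPM, against up to 163512 in C57BL/6 and 137676 to 150869 in MRL/lpr) and the lowest miR-204-5p and miR-211-5p, but the highest miR-204-3p of the C57BL/6 libraries. Relative to the epithelium list, its miR-204-5p lay between the other C57BL/6 libraries. In summed leukocyte miRNAs it was highest, at 48672 CPM, against 28747 CPM in the lowest C57BL/6 library and 26537 to 28633 CPM in MRL/lpr. Each C57BL/6 library thus lay above each MRL/lpr library in that sum. For C57BL/6 replicates 1 and 3 this order rests on miR-181a-5p, at 22744 and 24690 CPM, against 16311 to 18507 CPM in MRL/lpr. The sum therefore does not describe the other members. Of these, miR-155-5p and miR-142a-3p were higher in MRL/lpr without overlap of the strains, and the rest overlapped. Replicate 2 also had the highest summed myeloid miRNAs (1200.3 CPM, against 249 CPM in the lowest C57BL/6 library and 378 to 440.3 CPM in MRL/lpr). Without it, log2 fold changes were 1.42 for miR-204-5p, 2.99 for miR-204-3p and 1.94 for miR-211-5p (edgeR adjusted p = 0.00127, 0.00664 and 0.0124), where 54 of 470 entries passed (11.5%), 42 of them higher (8.94%).

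Markers of other cells are given against the same 6.21% of entries passing edgeR. At an unadjusted edgeR p under 0.05 the count was at least 93 of 451, and DESeq2 called 51 of the 1542 entries given to it, before its own filter. Among 7 leukocyte miRNAs, miR-155-5p of activated lymphocytes and macrophages rose (log2 fold change 1.30 ± 0.30 SE; list median 0.24). DESeq2 called 3, miR-155-5p and both arms of the pan-leukocyte miR-142a. A different 3 of the 7 had an unadjusted edgeR p under 0.05. They were miR-155-5p and miR-142a-3p, both higher, and miR-181a-5p, which was lower without overlap of the strains. miR-142a-3p was at 1.45 ± 0.45 without overlap of the strains and miR-142a-5p at 1.21 ± 0.52 with overlap (SE; edgeR adjusted p = 0.0943 and 0.245). Of the rest, miR-150-5p was at 0.24, miR-342-3p at 0.014, miR-181a-5p at -0.38 and miR-146a-5p at -0.55. Without C57BL/6 replicate 2, 4 leukocyte miRNAs were higher by edgeR, miR-146a-5p among them. In that fit 54 of all 470 entries passed (11.5%), 42 of them higher (8.94%). The leukocyte median was then 0.74, with 6 of the 7 above 0. Among 14 miRNAs tied to epithelial state and fibrosis, 12 were tested and 0 passed edgeR (2 at an unadjusted p under 0.05, and 1, miR-29b-3p, by DESeq2; median -0.18), with miR-181a-5p at -0.38 and the injury miRNA miR-21a-5p at 0.25. Without C57BL/6 replicate 2, 1 of the 12 passed, miR-21a-5p, where 11.5% of all entries did. Of 3 myeloid miRNAs tested, 0 passed (median -0.70), with miR-223-3p at -0.42 and miR-511-3p at -0.89. Without C57BL/6 replicate 2 the myeloid median was 0.71 and 1 was higher, where 8.94% of all entries were. Of 11 neural and neuroendocrine miRNAs, miR-129-2-3p rose (2.92) and miR-375-3p fell (-1.19), with a median of 0.078. In the myeloid and the remaining lists 0 members passed, also by DESeq2 and at an unadjusted p under 0.05. Medians there were 0.57 for 4 erythroid miRNAs (miR-451a at 0.70, miR-144-3p at 1.50), -0.19 for 2 endothelial miRNAs (miR-126a-3p at -0.28, miR-126a-5p at -0.088), -0.25 for 6 mesenchymal miRNAs (miR-143-3p at -0.33, miR-199a-3p at -0.0099 ± 1.56 SE) and -0.12 for miR-96-5p, miR-182-5p and miR-183-5p of sensory epithelia (miR-96-5p at -0.12, miR-183-5p at -0.14). The mesenchymal list also holds miR-199b-3p, at -5.70 ± 2.59 (SE). In C57BL/6 replicate 3 miR-199a-3p had 242 counts and miR-199b-3p 15070, against 13192 and 184 in C57BL/6 replicate 1. How reads were shared between these entries was not tested. The endothelial miR-126b-5p was listed at 0 in each library. The part of other cell types in the rise of the family was not tested.

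The miRNAs whose pattern over the 6 libraries was most like that of miR-204-5p were miR-92b-3p, miR-193a-3p, miR-802-3p, miR-708-5p and miR-802-5p. Likeness was the root mean square distance between log2(CPM + 1) profiles, each centred on its own mean. It was 0.23 for miR-92b-3p, 0.24 for miR-193a-3p, 0.26 for miR-802-3p, 0.27 for miR-708-5p and 0.29 for miR-802-5p, against a median of 0.83 over 276 named miRNAs with a mean of at least 10 CPM. The family's own scarce members lay farther off, at 0.44 for miR-204-3p and 0.61 for miR-211-5p. miR-204-3p averaged 3.31 CPM, below the 10 CPM floor of the 276, so the added 1 and counting error weigh on its distance. miR-92b-3p stood at 174, 191 and 207 CPM in C57BL/6 replicates 1 to 3 and at 455, 518 and 424 CPM in MRL/lpr replicates 1 to 3, without overlap. Like miR-204-5p, the other 4 were lowest in C57BL/6 replicate 2, at 33.1 CPM for miR-802-5p (against 72.0 and 60.6 in replicates 1 and 3), 10.9 CPM for miR-802-3p (against 22.9 and 18.9), 7.87 CPM for miR-193a-3p (against 14.9 and 16.2) and 25.7 CPM for miR-708-5p (against 34.6 and 36.5). miR-92b-3p was lowest in C57BL/6 replicate 1. The 5 were chosen for likeness over these same libraries, so the shared strain difference and low library follow largely from that choice.

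**Figure D4:**
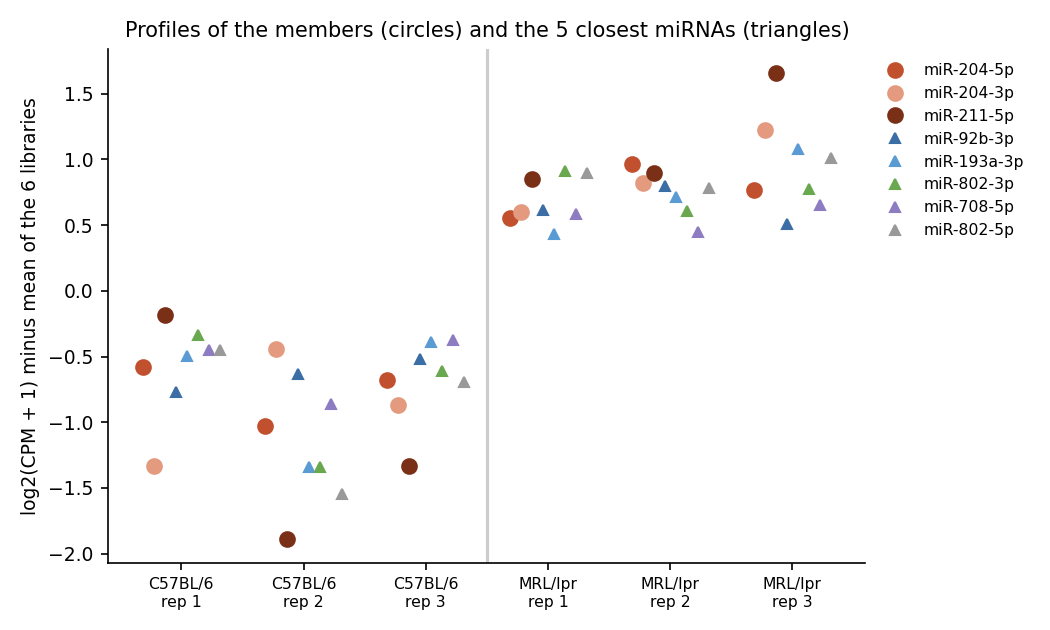
Log2(CPM + 1) in each library minus the mean of the 6 libraries, for the 3 counted members (circles) and the 5 miRNAs closest to miR-204-5p (triangles). Every profile is below its mean in the C57BL/6 libraries and above it in the MRL/lpr libraries, and miR-211-5p spreads most within C57BL/6. For the 5 closest miRNAs this follows largely from how they were chosen.

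Over 12 other tested settings, which included DESeq2, limma-voom and 3 other scalings, miR-204-5p passed in each, and miR-204-3p and miR-211-5p passed in 9 of 10 such settings each. Without any scaling for composition, the median of all entries moved from -0.027 to 0.12 on the log2 scale. The log2 fold change of miR-204-5p was then 1.68, that of miR-204-3p 2.59 and that of miR-211-5p 2.41, so every member kept its direction relative to that shift.

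**Figure D5:**
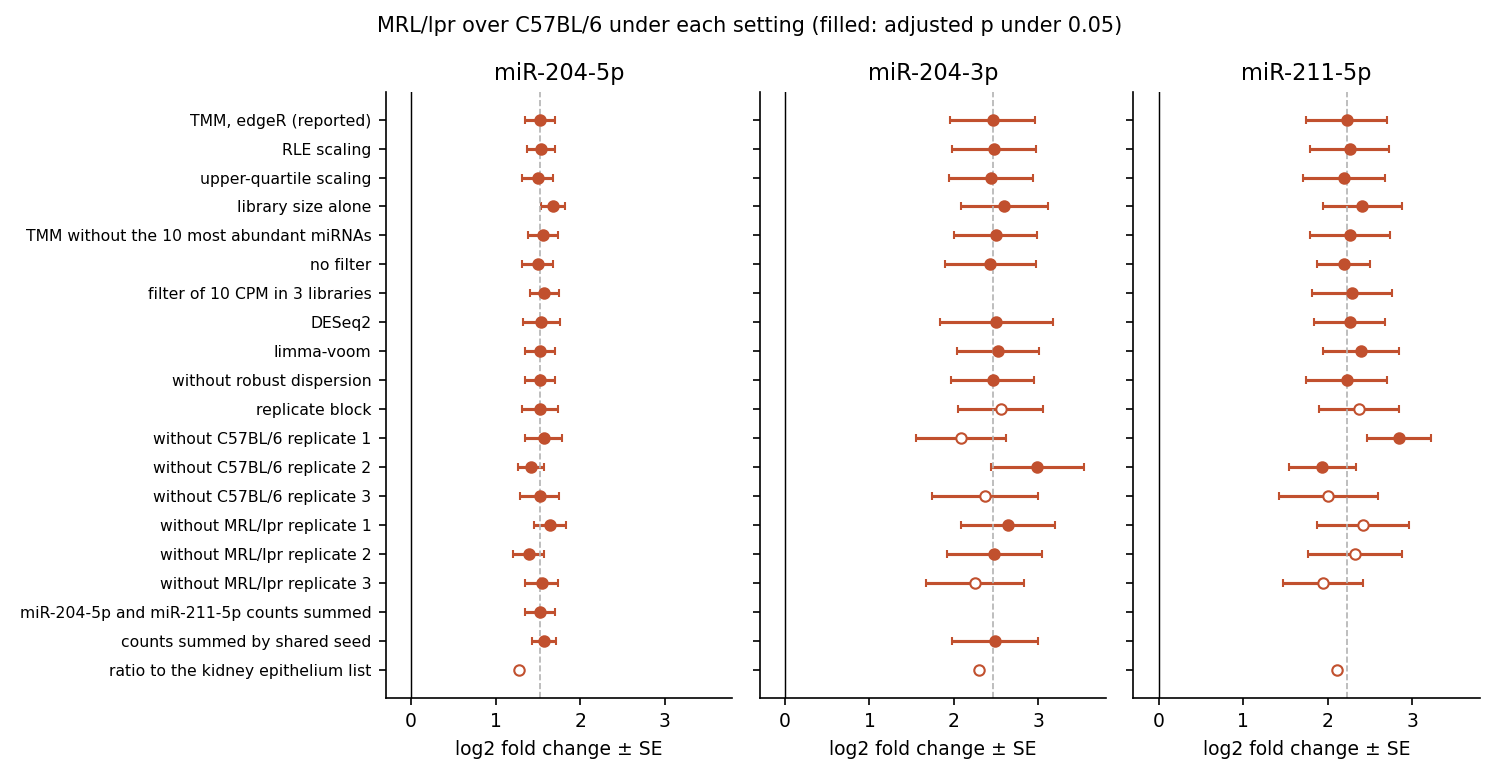
Log2 fold change (MRL/lpr over C57BL/6, with SE where the fit gives one) of the 3 counted members under each processing setting; filled points have an adjusted p under 0.05, and the dashed line marks the reported value. Every point lies to the right of 0. The ratio to the kidney epithelium list has no adjusted p, so its points are open for each member. The other open points, for miR-204-3p and miR-211-5p, are mostly fits with a library left out.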

How the data were processed

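Per the labels' protocols, total kidney RNA was ligated to adapters, amplified by PCR, size-selected on gels and sequenced as DNA nanoballs, with no mention of molecular identifiers. The authors deposited whole-number counts per mature miRNA, with no normalization (1190 miRBase-named and 352 predicted entries). Per the submitters' processing notes, Bowtie2, DESeq2 and GRCm38.p6 were used, and the assignment of reads that match several entries or carry mismatches is not stated there. Each column was paired with the sample whose title has its strain, age and replicate number.

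Counts were filtered by filterByExpr (minimum count 10, minimum total 15), scaled by TMM and tested for strain in R 4.3.3 with edgeR 4.0.16 (robust quasi-likelihood, biological coefficient of variation 35.1%), with Benjamini-Hochberg adjustment over 451 entries and a threshold of 0.05. Fold changes are fitted values, and standard errors come from the coefficient and its F statistic. Arm ratios used limma 3.58.1 on hairpins with a mean of at least 10 CPM over both arms, and ratios of miR-211-5p to miR-204-5p used counts with 0.5 added. Sequences and positions are from RefSeq and GENCODE M21, and folds from RNAfold 2.7.2. No library was a copy of another (chi-square over degrees of freedom at least 123 for each pair within a strain).

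In simulated counts for the 451 miRNAs with 200 changed, edgeR called 37% of 2-fold and 93% of 4-fold changes, none in the wrong direction, plus 6 miRNAs left unchanged, and made 0 calls in data without change. Of 102 simulated hairpins, 20 with a 4-fold arm shift, limma called 15 of the shifted and 1 of the others. The lists (kidney epithelium, epithelial state and fibrosis, leukocyte, myeloid, erythroid, endothelial, mesenchymal, neural and neuroendocrine, sensory epithelium) and the members were chosen with earlier results of these data known, and lists were described without a set test. Named miRNAs were the members, any entry with their seed, the 5 with the closest profile, and up to 4 called members of each list or, with none called, its 2 most abundant; other list members named with their values were chosen after seeing them. Figures were drawn with matplotlib 3.10.9. Alternatives were other scalings, filters, tools (DESeq2 1.42.0, limma-voom), pseudocounts, a replicate block, summed entries and each library left out.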

Additional observations from a re-analysis of the deposited data

How the results depend on the processing

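Every log2 fold change of the 3 counted members stayed above 0 in all settings run. miR-204-5p passed in each of 18 refits (highest edgeR adjusted p = 0.0380). With each library left out in turn, log2 fold changes ran from 1.39 to 1.65 for miR-204-5p, from 2.08 to 2.99 for miR-204-3p (3 of 6 fits passed) and from 1.94 to 2.84 for miR-211-5p (2 of 6 passed); these fits have fewer samples. Relative to the kidney epithelium list, where 0.1 is the smallest exact permutation p, they were 1.28, 2.30 and 2.11.

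The labels give both strains replicate numbers 1 to 3. Deviations from the strain means of same-numbered libraries correlated at -0.37, 0.034 and -0.37 across miRNAs, and no library correlated best with its own number. With 3 libraries per strain, deviations from a strain mean constrain each other, so this check cannot exclude a pairing. The labels do not say that the numbers pair the samples. With the number as a replicate block, 13 entries passed in place of 28, with log2 fold changes of 1.53 for miR-204-5p (edgeR adjusted p = 0.0380), 2.55 for miR-204-3p (0.0527) and 2.37 for miR-211-5p (0.0571). For the arm ratio the block gave -0.24.

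The arm ratio difference of -0.24 turned to 0.70 with 5 CPM added and to 0.078 without C57BL/6 replicate 1, running from -0.59 to 0.078 as libraries were left out. The difference in log2 ratio of miR-211-5p to miR-204-5p ran from 0.56 to 1.25 as libraries were left out, and that in seed family share from 1.03 to 1.16 percentage points. The number of entries passing, 28 as reported, was 5 to 54 as libraries were left out, 64 without a filter, 51 with DESeq2, and 19 without robust dispersion. Under 10 CPM in 3 libraries miR-204-3p was not tested, and the sum of the 5p members, nearly all miR-204-5p, was given under that name only; the sum of the 3p members was not run. Depth limits miR-204-3p most, with 2 to 10 counts per C57BL/6 library.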

Other observations

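The nearest tested miRNAs on the same chromosomes did not pass. On chromosome 19, miR-3084-5p and miR-3084-3p lie 2.19 Mb from Mir204, with log2 fold changes of 0.14 ± 0.30 and 0.24 ± 0.43 (SE; edgeR adjusted p = 0.805 and 0.766), and miR-101b-3p lies 6.38 Mb away, at -0.14 ± 0.25 (adjusted p = 0.776). On chromosome 7, miR-344-3p lies 2.27 Mb from Mir211, at -0.23 ± 0.53 (edgeR adjusted p = 0.825). These distances use 1 locus for each name, and miR-344-3p has further copies.

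Among pairs of named entries of equal length that differ at 1 base, 14 had a more abundant partner with a mean of at least 1000 counts. miR-211-5p had the lowest count relative to its partner of all 14, at 0.407% of miR-204-5p over all libraries. The next was miR-19a-3p, at 1.44% of miR-19b-3p, followed by miR-107-3p at 4.02% of miR-103-3p and let-7e-5p at 4.77% of let-7a-5p.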
